A study of Mus musculus with 12 samples.

Results

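A set of 10 genes that germ cells use, Ddx4, Mael, Stk31, Dazl, Sycp1, Sycp3, Smc1b, Rec8, Tex101 and Nlrp4f, was followed in neural cultures grown from mouse embryonic stem cells (mESC). They were chosen by their measured log2 ratios on these same arrays, above or below mESC across the 4 groups, so those levels are given as a description with no test. All 10 were found by the gene name of a probe on the array, 9 with 1 probe and Sycp3 with 2, among 22320 genes that could be compared between groups. The stem cells were C57BL/6 cells that carry eGFP under an actin promoter, 1 line throughout. They were freed of feeder cells, grown as embryoid bodies for 4 days, selected in serum-free ITSFn medium for 6 days and then expanded for 5 days with 10 ng/ml bFGF, which gave the neural precursors of step 4. At step 5 the cells had spent 7 days without bFGF in medium with B27 and 200 µM ascorbic acid. At each step, RNA of unsorted cells (control) and of cells that magnetic beads had enriched for PSA-NCAM, a polysialylated adhesion molecule of young neurons, was taken from 3 replicates per group. Dead cells were removed before the enrichment, with no word on whether control cells went through that step, and the labels do not settle whether the enriched cells of step 5 had been sorted before or after the 7 days of differentiation. Each of the 12 arrays set one such sample, in Cy5, against the same mESC RNA, in Cy3, with 0 dye swaps, so a dye bias cannot be told apart from a difference to mESC.

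Germ cells form germ granules, also called nuage, in which piRNAs are made that silence transposons, and they enter meiosis, in which a protein ladder, the synaptonemal complex, and meiotic forms of cohesin hold paired chromosomes together. Most body cells keep the genes for this machinery off, many of them by methylation of CpG-rich promoters and by a Polycomb complex with E2F6, MGA and MAX that binds E2F sites and E-boxes. Mouse embryonic stem cells grown with serum transcribe part of this set at a low level. In bulk RNA, fewer cells of a type and less RNA per cell cannot be told apart.

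The members' promoters are shown because in 9 of these genes, all but Rec8, every control array lay above every enriched array of the same step, and because such promoters are known for CpG content and for the 2 motifs above. The 250 bases before the first RefSeq start site (build GRCm38.p6) were read for all 10 genes, on the gene's strand. Capitals mark a match, on either strand, to the E2F-type motif TTCCCGC or to the E-box, whose letters are CACGTG and read the same on both strands. The 2 motifs did not overlap. The 8 printed windows lie at chr13:112652311-112652560 (Ddx4, minus strand), chr1:166238745-166238994 (Mael, minus), chr6:49395289-49395538 (Stk31, plus), chr3:102936101-102936350 (Sycp1, minus), chr10:88459337-88459586 (Sycp3, plus), chr15:85131958-85132207 (Smc1b, minus), chr14:55617916-55618165 (Rec8, plus) and chr13:65205717-65205966 (Nlrp4f, minus). The first 6 hold a motif, and Rec8 and Nlrp4f, shown as windows without one, hold neither. The windows of Dazl and Tex101, not printed, hold neither as well. Of the members without a motif, Rec8 alone did not separate control from enriched arrays.
Ddx4: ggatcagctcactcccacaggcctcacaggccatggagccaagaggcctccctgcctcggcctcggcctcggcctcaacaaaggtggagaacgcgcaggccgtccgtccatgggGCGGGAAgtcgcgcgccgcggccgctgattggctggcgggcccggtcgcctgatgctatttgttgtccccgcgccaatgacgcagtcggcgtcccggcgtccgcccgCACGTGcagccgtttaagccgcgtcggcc
Mael: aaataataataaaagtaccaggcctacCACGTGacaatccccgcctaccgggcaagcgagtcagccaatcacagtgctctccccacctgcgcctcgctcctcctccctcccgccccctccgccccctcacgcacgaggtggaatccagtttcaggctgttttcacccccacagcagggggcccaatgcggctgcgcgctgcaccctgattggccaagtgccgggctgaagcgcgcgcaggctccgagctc
Stk31: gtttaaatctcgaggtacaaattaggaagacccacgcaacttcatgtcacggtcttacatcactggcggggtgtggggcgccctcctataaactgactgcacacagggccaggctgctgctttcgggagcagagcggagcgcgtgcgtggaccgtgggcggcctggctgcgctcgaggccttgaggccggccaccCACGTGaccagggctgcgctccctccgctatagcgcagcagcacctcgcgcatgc
Sycp1: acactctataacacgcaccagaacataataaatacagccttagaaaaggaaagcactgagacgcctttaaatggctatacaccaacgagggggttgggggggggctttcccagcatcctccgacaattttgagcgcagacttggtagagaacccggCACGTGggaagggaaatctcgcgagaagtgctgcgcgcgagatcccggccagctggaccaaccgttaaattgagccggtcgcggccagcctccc
Sycp3: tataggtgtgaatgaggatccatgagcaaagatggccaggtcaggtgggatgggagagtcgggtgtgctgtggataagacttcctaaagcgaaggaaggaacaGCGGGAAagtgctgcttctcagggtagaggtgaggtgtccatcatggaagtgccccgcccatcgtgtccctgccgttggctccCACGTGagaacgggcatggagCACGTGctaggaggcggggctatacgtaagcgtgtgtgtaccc
Smc1b: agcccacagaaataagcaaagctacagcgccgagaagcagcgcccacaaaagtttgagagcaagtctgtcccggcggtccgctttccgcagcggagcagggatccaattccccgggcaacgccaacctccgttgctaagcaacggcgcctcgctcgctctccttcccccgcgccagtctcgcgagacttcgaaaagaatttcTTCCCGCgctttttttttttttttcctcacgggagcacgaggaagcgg
Rec8: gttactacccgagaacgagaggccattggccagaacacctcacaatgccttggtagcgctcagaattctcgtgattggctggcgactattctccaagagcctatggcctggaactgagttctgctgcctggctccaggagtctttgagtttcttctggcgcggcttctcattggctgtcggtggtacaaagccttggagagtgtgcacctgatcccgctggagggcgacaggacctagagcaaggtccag
Nlrp4f: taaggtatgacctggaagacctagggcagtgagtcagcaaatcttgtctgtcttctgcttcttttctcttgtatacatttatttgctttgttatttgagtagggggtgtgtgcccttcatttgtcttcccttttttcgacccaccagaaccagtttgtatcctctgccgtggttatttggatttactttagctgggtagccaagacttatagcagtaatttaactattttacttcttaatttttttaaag

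The E2F-type motif stood in 3 of the 10 windows, 136 bases before the start in Ddx4, 147 in Sycp3 and 48 in Smc1b, and in 3.83% of 27018 mouse promoters of the same length. The E-box stood in 5 windows, those of Ddx4, Mael, Stk31, Sycp1 and, with 2 matches, Sycp3, and in 6.05% of all promoters. Either motif was present in 6 of 10 members and in 9.56% of all promoters. Both motifs contain a CpG, and their shares among promoters of like CpG content were not taken. The ratio of observed to expected CpG had a median of 0.73 over the members and of 0.378 over all promoters, with a lower and an upper quartile of 0.165 and 0.726 over all. Smc1b had the highest ratio, 1.22 with 25 CpGs, followed by Ddx4 with 1.00 and 31 CpGs. Rec8 had 0.512 with 10 CpGs, and Nlrp4f had the lowest ratio, 0.217 with 2 CpGs. A match is a description of letters in 1 window per gene, and no binding or methylation was measured.

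**Figure D1:**
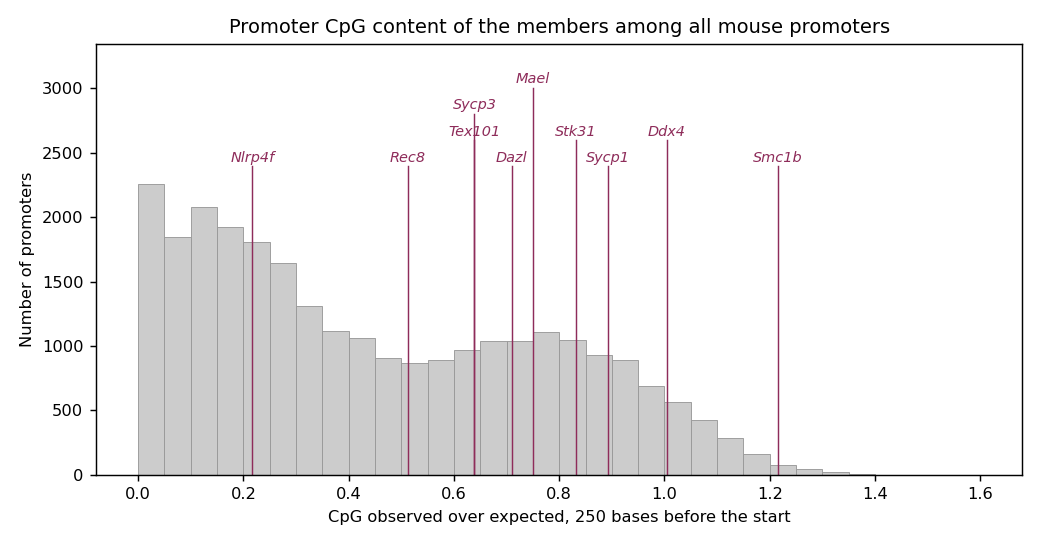
Number of mouse promoters (y axis) by CpG observed over expected in the 250 bases before the start (x axis, bins of 0.05), with a line at the value of each of the 10 members. Nlrp4f sits in the low part of the distribution at 0.217, and the other members lie between 0.512 and 1.22.

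All values that follow are log2 ratios to mESC, in which 0 is the mESC level, or differences between such ratios, and fold values are taken from them. The Cy3 signal was well above background on all 12 arrays for each member, and no member's spot was saturated. The number of arrays limits the precision. The 3 replicates of a group lay on 3 slides, numbered here as the replicates are, and slide 2 was read with an earlier version of the scanner software. Nothing in the labels says that the replicates came from separate cultures, so the p-values measure the spread between these samples, which may be technical. A test against mESC leaves out the spread of mESC itself, since 1 RNA stood for it. The Pearson correlation between arrays of a group was 0.662 to 0.920 in control and 0.895 to 0.964 in enriched cells. It was taken over 16831 named genes other than the members. The neural list (Sox1, Pax6, Nes, Dcx and 11 others) had its median above mESC on all 12 arrays, at 0.41 to 2.02 in control and 2.72 to 3.58 in enriched cells. Over all genes, 31.1% passed an adjusted p of 0.05 between enriched and control cells at step 4, 3340 higher (15.0%) and 3610 lower (16.2%), and 40.4% at step 5, 4528 higher (20.3%) and 4499 lower (20.2%). With median scaling in place of loess these splits were 4742 higher and 2549 lower at step 4 and 5922 higher and 3039 lower at step 5, and the median of all genes went from 0.01 to 0.13 at step 4 and from -0.01 to 0.13 at step 5. With the slide as a block, 8769 genes passed at step 4 and 10471 at step 5.

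Ddx4, Mael and Stk31 belong to the germ granule. Ddx4, also called Vasa, is its RNA helicase, and the probe lay at chr13:113388616-113388675 of build mm9, minus strand. Its log2 ratios were 2.31, 2.59 and 1.87 in step 4 control replicates 1, 2 and 3 and 2.25, 2.6 and 2.63 in step 5 control. In enriched cells they were -2.99, -1.3 and -3.03 at step 4 and -2.49, -0.20 and -2.15 at step 5. Unsorted cells thus held Ddx4 RNA at 4.78 times the mESC level at step 4 and 5.63 times at step 5, and every enriched array lay below mESC. Enriched cells were 25.9-fold lower than control at step 4 and 17.2-fold lower at step 5, with log2 differences of -5.30, -3.89 and -4.90 on slides 1, 2 and 3 at step 4 and -4.73, -2.80 and -4.78 at step 5.

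Mael (maelstrom) is a nuage protein of the piRNA pathway, and its probe lay at chr1:168131583-168131642 (mm9, minus strand). Its control values were 2.42, 2.61 and 1.63 at step 4 and 2.04, 2.68 and 2.18 at step 5. Its enriched values were -2.93, -1.95 and -3.11 at step 4 and -2.77, -0.97 and -2.62 at step 5. Control and enriched arrays were far apart at both steps, by 29.5-fold in the mean at step 4 and 21.4-fold at step 5. Stk31, a Tudor-domain protein with a kinase-like domain (chr6:49397301-49397360, mm9, plus strand), showed the same order at smaller sizes. Its values were 1.17, 1.71 and 1.02 in step 4 control and 1.29, 1.83 and 1.56 in step 5 control, against -1.70, -1.17 and -1.63 in step 4 enriched and -1.50, -0.43 and -1.47 in step 5 enriched cells. The Cy5 signal of Stk31 was well above background on 1 of 3 arrays of step 4 enriched cells. The mean differences were 6.97-fold at step 4 and 6.47-fold at step 5, and the step 4 value, which includes arrays not well above background, was -5.01 to -2.6 on the log2 scale over the other settings.

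Dazl encodes an RNA-binding protein that germ cells need to enter gametogenesis (chr17:50418923-50418982, mm9, minus strand). It read 1.04, 0.81 and 0.47 in step 4 control and 2.99, 1.72 and 2.99 in step 5 control. Enriched cells read -2.47, -2.19 and -2.48 at step 4, where Cy5 was well above background on 1 of 3 arrays, and -2.33, -0.73 and -1.89 at step 5. The step 5 control arrays therefore all lay above the step 4 control arrays, and the enriched arrays of both steps overlapped. Enriched cells were 8.90-fold below control at step 4 and 18.6-fold at step 5. The step 4 value rests in part on signals that were not well above background, and its log2 difference was -6.24 to -3.02 over the other settings.

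Sycp1 forms the transverse filaments of the synaptonemal complex and Sycp3 its lateral elements. Sycp1 (chr3:102622573-102622632, mm9, minus strand) was the member furthest above mESC, at 2.99, 3.54 and 2.29 in step 4 control and 3.29, 3.56 and 3.23 in step 5 control, which is 7.67 and 10.3 times the mESC level in the mean. In enriched cells it read -1.28, -0.77 and -1.32 at step 4, with Cy5 well above background on 1 of 3 arrays, and -1.38, -0.27 and -1.11 at step 5. Control exceeded enriched cells 16.7-fold at step 4 and 19.4-fold at step 5. The log2 difference at step 4, with its 2 dim arrays, was -6.81 to -3.76 over the other settings. Sycp3 was read by 2 probes, the brighter at chr10:87935675-87935734 (mm9, plus strand). The brighter probe gave 1.15, 1.66 and 0.37 in step 4 control, 0.69, 1.84 and 1.08 in step 5 control, -3.42, -2.38 and -3.30 in step 4 enriched and -3.23, -1.36 and -2.87 in step 5 enriched cells. The second probe gave means of 1.13, 1.25, -2.68 and -2.38 in the same order, so both probes placed control cells above mESC and enriched cells below it.

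Smc1b and Rec8 are subunits of meiotic cohesin, the ring that ties sister chromatids, and these 2 members parted. Smc1b (chr15:84895193-84895252, mm9, minus strand) read 0.94, 1.36 and 1.1 in step 4 control and 1.14, 0.84 and 2.03 in step 5 control, about the level of Sycp3 above mESC. In enriched cells it read -4.30, -3.27 and -4.56 at step 4 and -4.15, -1.29 and -3.28 at step 5. The difference was 36.3-fold at step 4 and 18.9-fold at step 5. On slides 1, 2 and 3 the log2 differences were -5.25, -4.64 and -5.66 at step 4 and -5.29, -2.13 and -5.31 at step 5. Rec8, the meiotic kleisin that takes the place of Rad21 (chr14:56244160-56244219, mm9, plus strand), did not separate the groups. It read -1.42, -0.80 and -0.74 in step 4 control, 0.08, -0.63 and -0.93 in step 4 enriched, -0.24, -0.81 and 0.64 in step 5 control and -0.77, -0.56 and -0.15 in step 5 enriched cells. These ranges overlapped at both steps, and the slides differed in sign, with 1.5, 0.17 and -0.19 for enriched minus control at step 4 and -0.53, 0.25 and -0.78 at step 5.

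Tex101, a GPI-anchored protein of the germ cell surface (chr7:25453040-25453099, mm9, minus strand), read 0.48, 0.96 and -0.38 in step 4 control and 1.15, 0.83 and 1.08 in step 5 control. Its enriched arrays lay close together, at -1.91, -1.88 and -1.98 at step 4 and -1.97, -1.72 and -1.74 at step 5. Control stood 4.85-fold above enriched cells at step 4 and 7.10-fold at step 5, and of the control arrays replicate 3 of step 4 alone was below mESC. Nlrp4f, a NOD-like receptor gene of the oocyte (chr13:65278444-65278503, mm9, minus strand), is a member of a family of close copies, and a probe may also bind RNA of a relative. It read 0.78, 0.37 and 0.03 in step 4 control and -0.79, 0.26 and -0.96 in step 5 control, so unsorted cells held it near the mESC level. Enriched cells read -5.02, -3.68 and -5.15 at step 4 and -4.42, -3.15 and -5.23 at step 5. The differences were 32.3-fold at step 4 and 13.7-fold at step 5.

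**Figure D2:**
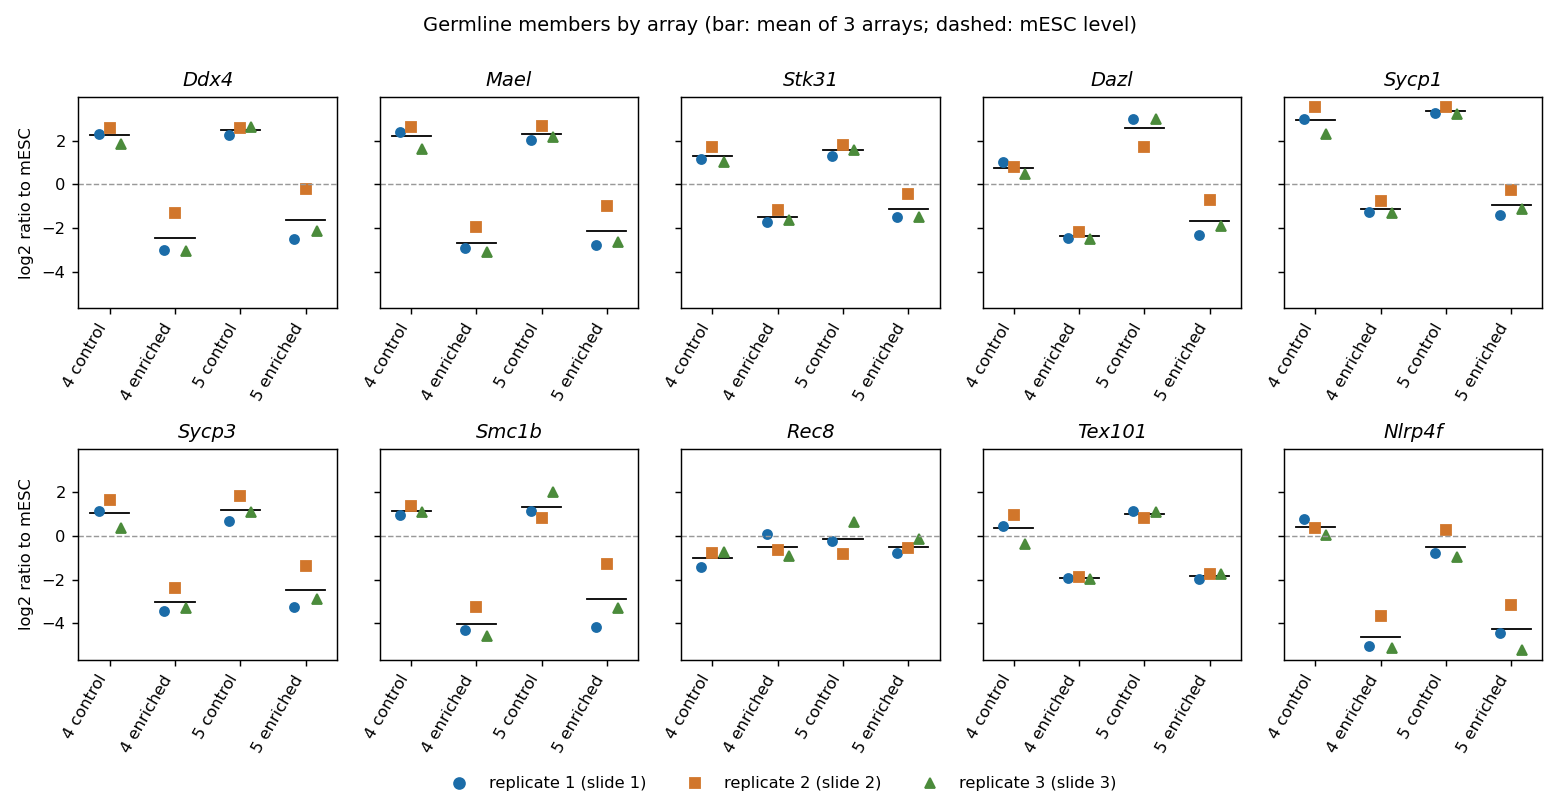
Log2 ratio to mESC (y axis) of each of the 10 members in the 4 groups (x axis). Points are single arrays, marked by replicate and slide, black bars are means of 3 arrays and the dashed line is the mESC level. Control points stand above enriched points in every panel other than Rec8, and the squares of replicate 2 are the highest enriched points in 9 of 10 panels at each step.

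Across the list, all control arrays exceeded all enriched arrays for 9 of 10 members at both steps, with Rec8 the exception. Such a complete separation was found for 24.8% of all genes at step 4 and 25.6% at step 5, and since levels in these groups served to pick the members nothing is read from their count. In step 4 control cells 8 members lay above mESC on 3 of 3 arrays (35.9% of all genes did) and Rec8 below it (29.1%). In step 5 control cells 8 lay above it (36.7%, with 28.4% below). In enriched cells no member lay above mESC on 3 of 3 arrays (42.2% of all genes at step 4, 44.3% at step 5), while 9 lay below it at step 4 (38.5%) and 10 at step 5 (39.1%). The median difference over the 10 members was -4.08 at step 4 and -3.94 at step 5. It was -5.58 and -4.63 from the scanner's own processed log ratios and from the authors' deposited table, and -3.78 to -4.41 and -3.64 to -4.47 when single arrays were left out. The members' differences between steps in the size of enrichment ran from -1.06 (Dazl) to 1.24 (Nlrp4f), with a median of 0.26. In step 4 control cells the order of mean levels above mESC was Sycp1 (2.94), Ddx4 (2.26), Mael (2.22), Stk31 (1.30), Smc1b (1.13), Sycp3 (1.06), Dazl (0.77), Nlrp4f (0.39), Tex101 (0.35) and Rec8 (-0.99). In step 5 control cells it was Sycp1 (3.36), Dazl (2.57), Ddx4 (2.49), Mael (2.30), Stk31 (1.56), Smc1b (1.34), Sycp3 (1.20), Tex101 (1.02), Rec8 (-0.14) and Nlrp4f (-0.50). The ranges of neighbours in these orders overlapped, except those of Tex101 and Rec8 at both steps and of Sycp1 and Dazl and of Mael and Stk31 at step 5. The ratios are relative to mESC and do not rank the genes by abundance.

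**Figure D3:**
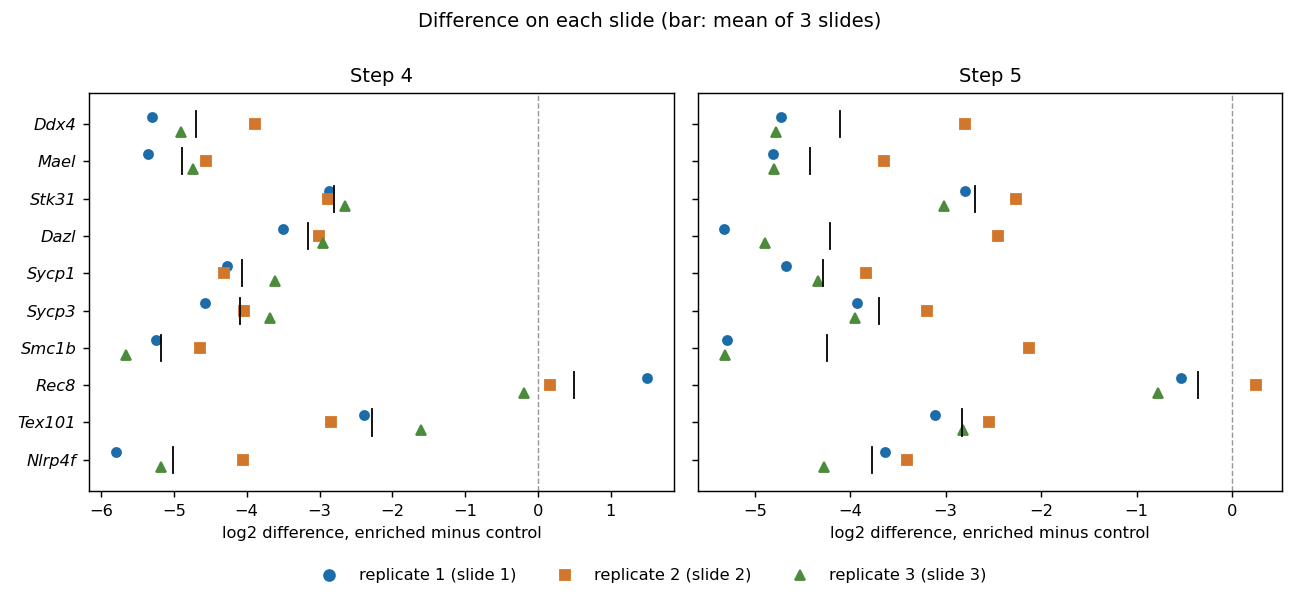
Log2 difference, enriched minus control (x axis), of each member (y axis) on each of the 3 slides at step 4 and step 5. Points are slides and black bars are the means. Values of 9 members lie below 0 on all slides, Rec8 lies on both sides of 0, and at step 5 slide 2 is nearest to 0 for all 10 members.

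The replicates differed in a way that ran through the list. Among enriched cells, replicate 2 had the highest value for 9 of 10 members at step 4 and 9 of 10 at step 5. Among step 4 control cells, replicate 2 was the highest for 7 members and replicate 3 the lowest for 8. The members' median was -2.70, -1.92 and -2.76 in step 4 enriched and -2.41, -0.85 and -2.02 in step 5 enriched replicates 1, 2 and 3. The 20 genes of the pluripotent list followed, with medians of -4.70, -3.58 and -4.74 at step 4 and -4.03, -3.09 and -4.60 at step 5. Nanog, a core factor of pluripotent cells, read -6.26, -4.01 and -6.42 in step 4 enriched and -5.42, -2.96 and -5.93 in step 5 enriched cells. Enriched replicate 2 thus stood nearest to mESC in the median of the members and in that of the pluripotent genes, while the neural list there had medians of 3.21 and 2.79, between the values of replicates 1 and 3. The part of pluripotent cells in the members' differences was not tested. Without both enriched arrays of slide 2, the members' median difference between enriched and control cells was -4.33 at step 4.

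**Figure D4:**
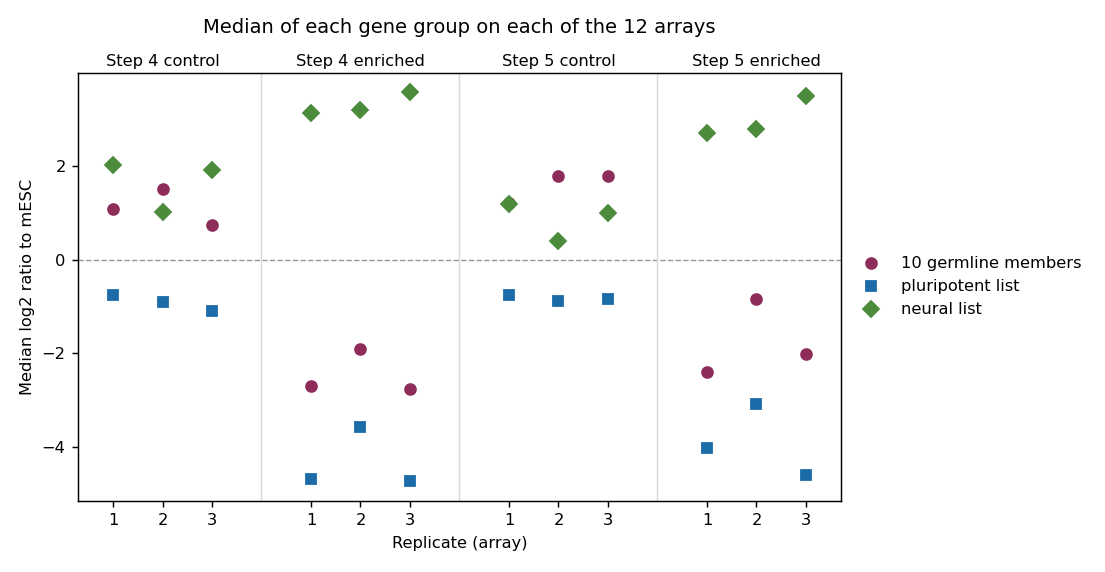
Median log2 ratio to mESC (y axis) of the 10 members, the pluripotent list and the neural list on each of the 12 arrays (x axis, replicates within groups). In control cells the members lie above mESC (0.75 to 1.79) and the pluripotent list below it (-1.09 to -0.75), and in enriched cells both lie below mESC with replicate 2 the highest.

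The pluripotent list set the members in relation to the stem cells that the cultures came from. All 20 of its genes fell in enriched against control cells at both steps (limma, Benjamini-Hochberg), where 16.2% and 20.2% of all genes fell. The list's medians in control cells were close to 1 log2 unit below mESC, -0.76, -0.90 and -1.09 at step 4 and -0.75, -0.88 and -0.85 at step 5. Against mESC, 11 of 20 passed as lower in step 4 control and 9 of 20 in step 5 control, and 0 as higher (over all genes 38.8% passed at step 4, 21.4% higher and 17.4% lower, and 44.6% at step 5, 25.7% higher and 19.0% lower). With median scaling, under which the median of all genes against mESC went from 0.03 to 0.32 in step 4 control and from 0.05 to 0.32 in step 5 control cells, 4 and 3 of 20 passed as lower and 0 as higher. The split over all genes against mESC then went from 4808 higher and 3908 lower to 9842 and 1826 at step 4, and from 5759 and 4258 to 9893 and 1739 at step 5. The largest drops were those of Dppa5a (-1.97) and Nr0b1 (-1.78) at step 4. Pou5f1 (Oct4) was at -0.67 and -0.69, Nanog at -1.03 and -0.69 and Zfp42 (Rex1) at -0.97 and -0.95 in step 4 and step 5 control cells, with adjusted p of 0.110 to 0.323. Without both enriched arrays of slide 2 these 3 genes passed as below mESC in control cells at both steps, with the same values. In enriched cells Fgf4 fell 40.4-fold, Nanog 23.2-fold and Zfp42 22-fold against control at step 4. On the control arrays, where Sycp1 and Ddx4 stood above mESC, Pou5f1 stood between -0.50 and -0.86. With median scaling Pou5f1 was at -0.04 and -0.18 in step 4 and step 5 control cells (adjusted p 0.932 and 0.687).

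The 7 lists of other germline genes, chosen with these results known, held 145 genes, of which 107 could be tested between groups and 109 against mESC. In enriched cells 67 of 107 fell and 3 rose at step 4, and 74 fell and 3 rose at step 5. Over all genes 16.2% and 20.2% fell and 15.0% and 20.3% rose. These shares stand beside each list below in enriched against control cells. The median difference was -0.92 and -0.97, against 0.01 and -0.01 over all genes. A gene could enter through any group with Cy5 well above background on its 3 arrays, so genes seen in control cells alone could only fall. The same holds for each list below. With Cy5 well above background required on all 12 arrays, which leaves fewer genes tested, 41 and 46 fell. Against mESC, 27 of 109 were higher and 28 lower in step 4 control cells, with 21.4% and 17.4% over all genes. In step 5 control cells 37 were higher and 29 lower, with 25.7% and 19.0% over all genes. The count of higher genes at step 4 is near its share. These shares also stand beside the counts of each list below in control cells against mESC. In enriched cells 11 were higher and 77 lower at each step, where 35.4% of all genes were higher and 31.5% lower at step 4 (66.9% in all) and 38.4% higher and 33.0% lower at step 5 (71.4% in all). With median scaling these splits over all genes went from 7946 higher and 7067 lower to 11463 and 3706 at step 4 and from 8611 and 7418 to 11858 and 3987 at step 5. The count above mESC in step 4 control was 16 without step 4 control replicate 2. With median scaling the counts above mESC in control cells were 38 and 52.

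The list of the synaptonemal complex and chromosome axis holds the partners of Sycp1, Sycp3, Smc1b and Rec8. All 13 of its tested genes fell in enriched cells at both steps (16.2% and 20.2% of all genes did), with medians of -1.97 and -2.04. Hormad1, an axis protein that watches synapsis, fell 20.6-fold at step 4 (log2 -4.37, SE 0.45, adjusted p 0.000207). Its Cy5 signal was well above background on 1 of 3 enriched arrays, and the difference was -6.93 to -3.91 over the other settings. Syce1 and Syce3, central elements of the complex, fell 19.8-fold and 16.3-fold. Against mESC, 8 of 13 were higher in step 4 control and 9 of 13 in step 5 control, led by Hormad1 (1.63 and 1.83), Syce1 (1.49 and 1.67) and Stag3 (1.03 and 1.08), the meiotic cohesin partner of Smc1b and Rec8. Sgo2a, a shugoshin that protects centromeric cohesin, was the 1 gene below mESC, at -1.28 in both. From the scanner's processed ratios 5 of 13 were higher at step 5 and Hormad1 did not pass at either step. Its call held in 23 of 25 other settings at each step, with adjusted p of up to 0.119 at step 4 and 0.0832 at step 5.

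Genes of the piRNA pathway and nuage fell in 10 of 17 cases at step 4 and 13 of 17 at step 5, and 2 rose at each step. Over all genes 16.2% and 20.2% fell and 15.0% and 20.3% rose, so the count of risers is near or below its share. Gpat2, a mitochondrial partner of piRNA production, fell 15.4-fold at step 4 and 16.4-fold at step 5. Fkbp6, a co-chaperone of piRNA loading, fell by 3.43 on the log2 scale at step 4 and 10.9-fold at step 5. Its log2 ratios ran like those of the members, at 1.95, 2.52 and 1.13 in step 4 control, 2.03, 2.43 and 2.24 in step 5 control, -1.72, -1.14 and -1.82 in step 4 enriched and -1.77, -0.36 and -1.50 in step 5 enriched cells. Piwil2, a PIWI protein, fell 9.02-fold at step 4, with Cy5 well above background on 1 of 3 enriched arrays. Tdrd7 and Tdrkh, Tudor proteins also made outside the germline, were the 2 that rose, by 1.3 and 1.0 on the log2 scale at step 4 and 1.32 and 0.68 at step 5. The call of Tdrkh held in 25 of 26 other settings at step 4 (adjusted p up to 0.0607, without slide 2) and in 14 of 26 at step 5 (up to 0.162), and at step 5 it was lost, among other settings, on leaving out replicate 2 of step 5 control or replicate 2 or 3 of step 5 enriched cells. Against mESC 6 of 18 were higher in step 4 control and 9 in step 5 control, and 4 were lower at each step. Tdrd12 was the lowest, at -1.44 and -1.52.

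For meiotic entry and recombination, 17 of 25 genes fell in enriched cells at step 4 and 19 at step 5, when 1, Spdya, rose by 0.38 on the log2 scale, a call that held in 14 of 26 other settings (adjusted p up to 0.141). Tex14, a protein of germ cell bridges, fell 13.8-fold, Rec114, a partner of the break-forming complex, 13.2-fold, and Tex11 11.1-fold at step 4. In control cells about as many of the 26 genes stood above mESC as below it. The counts were 5 against 6 at step 4 and 7 against 7 at step 5. Those above mESC are near the 21.4% and 25.7% of all genes. Median scaling gave 10 against 5 and 13 against 5. Tex11 led at step 4 with 1.52 and stood at 2.09 at step 5. At step 4 its call held in 23 of 26 other settings (adjusted p up to 0.0542) and was lost without step 4 control replicate 3. Mnd1 was the lowest, at -1.12 and -1.35. Stra8, the retinoic acid response gene that starts meiosis, read 0.17, -1.11 and -0.75 in step 4 control and 3.57, 1.29 and 4.07 in step 5 control. In enriched cells it read -4.01, -3.68 and -3.90 at step 4 and -1.01, 1.48 and -0.45 at step 5. It was the highest of its list in step 5 control cells, 7.87-fold above mESC (adjusted p 0.00123), and on slide 2 of step 5 the enriched array exceeded the control array.

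Of 12 germline genes known to be silenced by promoter methylation in body cells, 11 fell in enriched cells at step 4 and 12 at step 5. Tex19.1, a germline guard against transposons, fell 13.6-fold at step 4, and Tuba3a, a testis tubulin with near copies that its probe may also read, fell 9.27-fold. Slc25a31, the testis ADP/ATP carrier, fell 4.61-fold, with Cy5 well above background on 1 of 3 enriched arrays, and was the furthest above mESC in this list, at 1.84 and 2.40 in control cells. In all, 4 of 12 were above mESC in step 4 control and 8 in step 5 control, Brdt and Rhox13 among the latter with 1.01 and 1.21. The oocyte list gave 10 of 14 lower in enriched cells at each step, led by Khdc3 (16.6-fold at step 4) and Nlrp4c, a relative of Nlrp4f (6.62-fold, with Cy5 well above background on 1 of 3 enriched arrays). Against mESC Nlrp4c was higher in step 5 control, at 0.89, a call that held in 20 of 25 other settings (adjusted p up to 0.3) and was lost without step 5 control replicate 1 or 3. Gdf9, an oocyte growth factor, was above mESC in both control groups (1.46 and 1.29), at step 5 in 25 of 26 other settings (adjusted p up to 0.0559, without step 5 control replicate 2), and its arrays did not separate control from enriched cells. In control cells 1 of 14 oocyte genes was above mESC and 5 below it at step 4, and 2 above and 7 below at step 5. Padi6, of the egg's cytoplasmic lattices, was at -1.73 and -1.5, and Nlrp9c, another relative of Nlrp4f, at -0.50 and -1.79.

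The last germline lists hold genes from either end of the programme, haploid sperm and the founding of the lineage. Of 14 genes of haploid sperm, 3 fell in enriched cells at step 4 and 2 at step 5, with medians of -0.08 and -0.04, and Ldhc, the sperm lactate dehydrogenase, led with a 3.47-fold drop at step 4, where its Cy5 signal was well above background on 1 of 3 enriched arrays. At step 5, 4 passed with the slide as a block. The counts of 3 and 2 are near the shares of all genes that fell, 16.2% and 20.2%. With median scaling both medians turned to 0.05. The list of germ cell specification also holds genes not limited to that event, such as Kit, Nanos2, Dmrt1 and Ifitm1, so its counts do not read specification alone. Of its 12 genes, 1 rose and 3 fell in enriched cells at step 4, where 15.0% and 16.2% of all genes did. At step 5, 5 fell (20.2% of all genes), and with the slide as a block 8 passed at step 4. Against mESC, 0 were above it in control cells of either step under loess, 7 were below it at step 4 and 5 at step 5, and median scaling gave 2 above and 3 below at step 5. Ifitm1 was the furthest below mESC among those that passed, at -2.68 and -2.32 in step 4 and step 5 control cells. Prdm1 (Blimp1) stood at -1.44 and -0.67 (adjusted p 0.000473 and 0.0263), Tfap2c at -2.24 and -1.71, Prdm14 at -1.41 and -0.45 and Dppa3 (Stella) at -0.50 and -0.45 in step 4 and step 5 control cells. The step 5 value of Prdm14 and both of Dppa3 did not pass (adjusted p 0.395 to 0.556). The step 4 call of Prdm14 held in 19 of 25 other settings (adjusted p up to 0.145) and was lost without step 4 control replicate 2 or 3, and the step 5 call of Prdm1 held in 21 of 26 (up to 0.368). Kit, the receptor of migrating germ cells, stood at -0.69 and 0.48 and passed in neither (adjusted p 0.175 and 0.328), though at step 4 it did with the slide as a block (adjusted p 0.0321). Between enriched and control cells Dppa3 fell 25-fold at step 4 and 14.8-fold at step 5 and Prdm14 9.05-fold and 14-fold, while Nanos3 rose by 0.79 on the log2 scale at step 4. Tfap2c did not pass at step 4 (-1.47, adjusted p 0.0639, with the block 0.0363) and fell by 2.54 at step 5. Kit stood at -1.15 at step 4 (adjusted p 0.129, with the block 0.0203) and fell by 1.86 at step 5. That last call held in 23 of 26 other settings (adjusted p up to 0.0708) and was lost on leaving out replicate 3 of step 5 control or replicate 1 or 3 of step 5 enriched cells. Dppa3 and Prdm14 are also genes of pluripotent stem cells.

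**Figure D5:**
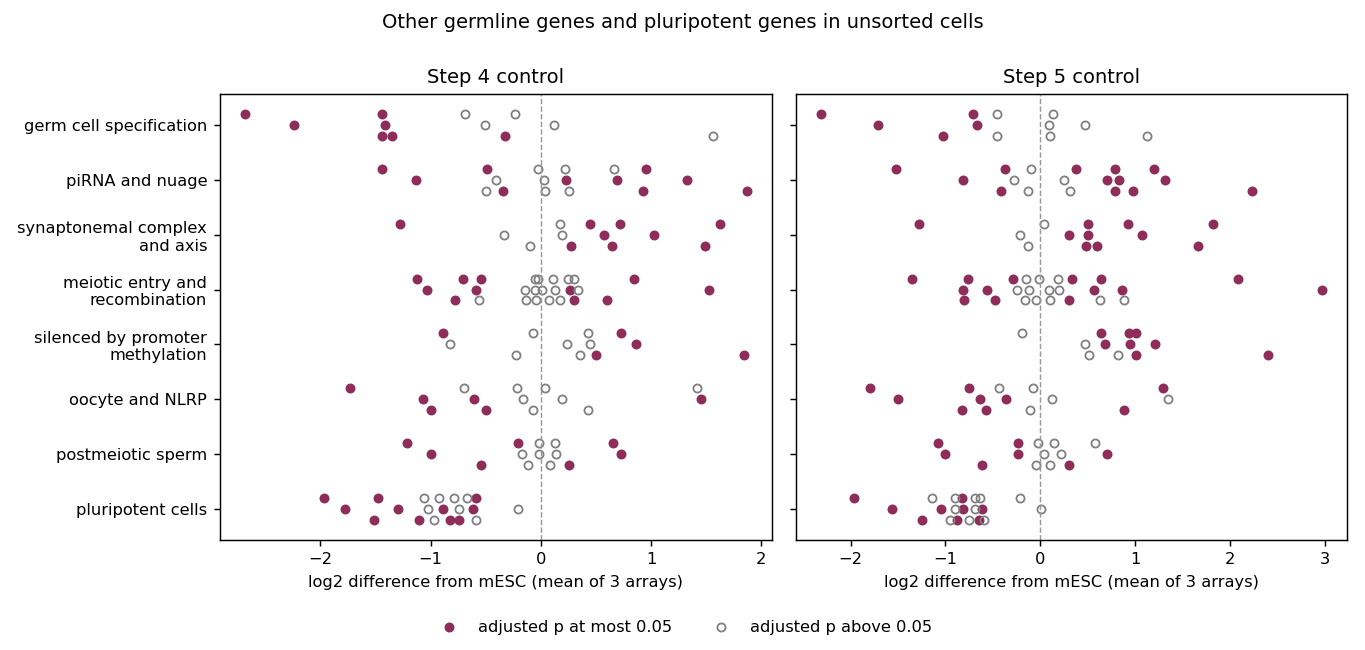
Log2 difference from mESC (x axis) of the genes of the 7 germline lists and the pluripotent list (y axis) in step 4 and step 5 control cells. Points are genes as means of 3 arrays, filled where the adjusted p was at most 0.05. Most filled points of the synaptonemal and methylation-silenced lists lie to the right of 0, and all filled points of the specification and pluripotent lists lie to the left.

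The cohesin that all dividing cells use was set beside Smc1b and Rec8. Of 10 genes of mitotic cohesin and its loaders and releasers, 2 fell in enriched cells at step 4 and 4 at step 5. Over all genes 16.2% and 20.2% fell, so the step 4 count is near that share. Smc1a, the mitotic counterpart of Smc1b, differed by 0.25 at step 4 and 0.01 at step 5 (adjusted p 0.160 and 0.972), where Smc1b differed by -5.18 and -4.24. Rad21, the counterpart of Rec8, differed by -0.06 and -0.38 (adjusted p 0.837 and 0.105). Smc3, which both kinds of cohesin share, differed by -0.34 at step 4 (adjusted p 0.194) and fell by 0.75 at step 5. Stag2 differed by 0.33 and 0.53 (adjusted p 0.338 and 0.113) and passed as higher at both steps with the block (adjusted p 0.0473 and 0.00557). Against mESC, Smc1a (-0.33 and -0.40) and Smc3 (-0.49 and -0.39) were lower in control cells of both steps and Rad21 (-0.43) at step 4, but median scaling turned all 5 of these values above 0. Rad21 stood at -0.31 at step 5 (adjusted p 0.0624, with the block 0.0382). Stag2 was higher, at 0.98 and 0.71.

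A further list held 22 genes of germline gene repression and of DNA methylation and its removal, the last with Tet1 and Tet2. Not all of them keep germline genes off. Of the 22, 3 rose and 9 fell in enriched cells at step 4, and 4 rose and 11 fell at step 5. The counts of risers are near the shares over all genes, 15.0% and 20.3%, while 16.2% and 20.2% of all genes fell. The de novo methyltransferase Dnmt3a rose 2.44-fold at step 4 and 3.14-fold at step 5, at step 4 in 25 of 26 other settings (adjusted p up to 0.0866, without slide 2). Its relatives of early embryos fell, Dnmt3l 25.6-fold and 13.7-fold and Dnmt3b 6.43-fold and 3.68-fold. The call of Dnmt3b at step 5 held in 23 of 26 other settings (adjusted p up to 0.0996) and was lost without step 5 control replicate 1 or 2 or step 5 enriched replicate 3. Tet1 fell 3.21-fold at step 4, and Uhrf1, which guides maintenance methylation, fell 4.14-fold at step 5. In control cells Dnmt3a stood at 2.09 and 2.22 above mESC and E2f6 at 1.29 and 0.99, while 6 and 9 of the 22 genes stood below mESC and 5 above it at each step, the latter near the 21.4% and 25.7% of all genes above mESC. With median scaling the median difference between enriched and control cells at step 4 went from -0.10 to 0.03, and against mESC 13 stood above and 2 below at step 4 and 11 above and 2 below at step 5.

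The change from step 4 to step 5 was tested in the members, which were not chosen for a difference between steps. They were chosen for their levels against mESC in the 4 groups, and the change is a difference of those same ratios. Its p-values are therefore not independent of the choice. No member passed in either kind of cell (limma, Benjamini-Hochberg over all genes). In control cells 0 of 22320 genes passed, with 1917 at an unadjusted p under 0.05, and 1 gene passed with the replicate number as a block. In enriched cells 6.42% of all genes passed, 1433 in number (3.96% higher and 2.46% lower), and 2440 with the block. The members' differences ran from -0.89 (Nlrp4f) to 1.79 (Dazl) in control cells, with a median of 0.25 and adjusted p of 0.2 to 0.993. In enriched cells they ran from -0.0018 (Rec8) to 1.14 (Smc1b), with a median of 0.46 and adjusted p of 0.331 to 0.999. Without step 5 enriched replicate 2 that median was 0.02.

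Dazl had the largest difference and the smallest p of the members in control cells. It was 3.47-fold higher at step 5 (log2 1.79, SE 0.42, unadjusted p 0.00147, adjusted p 0.2), and higher on 3 of 3 slides by 1.95, 0.91 and 2.52. All step 5 control arrays exceeded all step 4 control arrays, as they did for 7.33% of all genes and for no other member. No member had all step 5 enriched arrays above all step 4 enriched arrays, a pattern of 14.5% of all genes. The value was 2.22 with an adjusted p of 0.0227 without step 5 control replicate 2, and 2.24 with an adjusted p of 0.0247 without slide 2. Over all other settings the value was 1.58 to 2.24 and the adjusted p 0.0227 to 0.742. Nlrp4f went the other way, lower at step 5 on 3 of 3 slides by -1.57, -0.11 and -0.99 (log2 -0.89, SE 0.55, adjusted p 0.779). Sycp1 and Stk31 were higher on 3 of 3 slides, by 0.42 and 0.26 in the mean, with SE of 0.34 and 0.30 and adjusted p of 0.871 and 0.939. For Ddx4, Mael and Sycp3 the slides disagreed in sign, and the means, 0.24, 0.08 and 0.14, were smaller than their SE of 0.59, 0.48 and 0.52. Tex101 and Rec8 were 0.67 and 0.84 higher, each on 2 of 3 slides (SE 0.27 and 0.37, adjusted p 0.49 and 0.563), and Smc1b was 0.20 higher (SE 0.63, adjusted p 0.989).

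Stra8 was the germline gene outside the members with the largest rise between steps in enriched cells. In control cells it was 3.54 higher at step 5 on the log2 scale (SE 0.75), above all step 4 arrays, and did not pass (adjusted p 0.160). Without step 5 control replicate 2 the value was 4.38 with an adjusted p of 0.0101, and without slide 2 it was 4.1 with 0.0132, against 0.0101 to 0.581 over all other settings. In enriched cells Stra8 rose 14.6-fold (log2 3.87, SE 0.75, adjusted p 0.0159). That call was lost without step 4 enriched replicate 2 (3.96, adjusted p 0.0593) and without both enriched arrays of slide 2 (3.22, adjusted p 0.119), and held in 24 of 26 other settings. For Dazl the enriched difference was 0.73 (SE 0.42, adjusted p 0.35) against step 4 arrays of which 1 of 3 was well above background, and 0.27 to 2.66 over the other settings. Of the 107 germline genes, 0 passed between steps in control cells, as did 0 of all genes. In enriched cells 2 rose and 4 fell, 10 in all with the block. Without the block this is 5.61% of them, near the 6.42% of all genes that passed (3.96% higher and 2.46% lower). With the block 2440 of 22320 genes passed. Beside Stra8 the other riser was Tle6 (0.75), and Tdrkh, Trip13, Psmc3ip and Npm2 fell, by 0.94, 0.96, 0.59 and 0.47. All 5 of these calls were lost without slide 2 (adjusted p 0.091 to 0.234).

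The profiles over the 12 arrays were compared as a description, with no test, since the arrays share slides and the same mESC reference. Each member's values were set against the mean of the other members. Pearson's r was 0.917 for Nlrp4f to 0.986 for Stk31, and -0.04 for Rec8. Among 16831 other named genes, the one most like the members' mean profile was Rnf17, a Tudor protein of germ granules (r 0.996), followed by Gpat2 (0.996), Rbm44 (0.994), Gm10439 (0.994), Gm15085 (0.993), Phf11a (0.991), Ctag2l2 (0.990), Nuggc (0.990), Fkbp6 (0.990) and Efhc2 (0.990). Rnf17, Gpat2 and Fkbp6 of these stood in the piRNA list. Their levels differed even so. Fkbp6 had mean values of 1.87 and 2.23 in control cells, Phf11a of -0.79 and -0.30, and Rnf17 of -0.03 and 0.31. Likeness of profile therefore did not always go with a level above mESC. Phf11a lay below it in all 4 groups, at -4.55 and -4.33 in enriched cells. The rest of the genes named had step 5 control means above mESC, from 0.21 (Nuggc) to 2.23 (Fkbp6). In step 4 control cells Rnf17, Rbm44 and Nuggc were just below it, at -0.03, -0.02 and -0.01.

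Cells of the gonad other than germ cells were looked for with a list of 11 markers, of which 8 could be tested. At each step 2 rose in enriched cells and 0 fell. Over all genes 15.0% rose and 16.2% fell at step 4, and 20.3% rose and 20.2% fell at step 5. With the slide as a block 4 markers passed at step 4 and 3 at step 5, 2 as higher at each step and the rest as lower. The 2 risers, Sox9 and Inha, were named after their values were seen, as were the other markers given here. Sox9, also a gene of neural precursors, rose 4.68-fold at step 4 and 5.62-fold at step 5, and Inha 1.98-fold and 2.48-fold. The list's median lay between 0.05 and 0.31 in control and between -0.17 and 0.72 in enriched cells. The defining markers Amh, Fshr and Hsd3b1 were not well above background on all 3 arrays of any group. Foxl2 differed by -0.20 and Nr5a1 by 0.0030 between enriched and control cells at step 4 (adjusted p 0.146 and 0.984).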

How the data were processed

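Of each array the files hold spot intensity values in Cy3 and Cy5, their local background and flags, and a log10 ratio of Cy5 over Cy3 that was background-subtracted, spatially detrended and dye-normalized, made with Agilent Feature Extraction 10.5.1.1 (4 arrays) or 10.7.3.1 (8 arrays), per the file headers. The authors' deposited table holds log2 ratios that equalled the scanner's log ratio to within 0.001 for 99.4% to 99.5% of probes, with every column's median at 0.

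The members and all gene lists were chosen with earlier results of these data known. With R 4.3.3 and limma 3.58.1, intensities were corrected with normexp (offset 50) and normalized by loess within arrays. Control spots had weight 0, outlier spots (128 to 298 per array) were left out, and spots were averaged over 39429 probes. A gene took its brightest probe with Cy5 well above background on all 3 arrays of a group, or, against mESC, with Cy3 on all 12, which gave 22320 and 22450 genes. Probes were named through accessions, symbols or synonyms in RefSeq (29690 of 39429). Means of the 4 groups were fitted with lmFit and eBayes, with Benjamini-Hochberg adjustment at 0.05, and the script was tested on simulated data. Fold values are of fitted log2 differences. Named genes were all members, a fixed set of cohesin, pluripotency and germ cell genes, and the 10 genes most like the members. From each germline, repressor and pluripotent list came genes among the 3 largest differences in each direction that passed. Not all genes among those 3 are named. Same-numbered samples deviated together in every contrast compared (correlations of 0.13 to 0.747 over all genes). Between step 4 enriched and step 5 control samples, which were not contrasted, the correlations were -0.134 to 0.228. Each number is also a slide, so the numbers pair the samples. The main fit left this pairing out, and the fit with the block used it. Exons or UTRs under the probes were not analysed here.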

Additional observations from a re-analysis of the deposited data

How the results depend on the processing

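In 9 members the difference between enriched and control cells kept its sign in all alternatives at both steps, and Rec8 at step 5 ran from -0.69 to 0.04. The members' median at step 4 was -4.49 without background correction, -5.58 from the scanner's processed ratios and the authors' deposited table, and -4.33 without both enriched arrays of slide 2. The processed ratios and the deposited table also gave -4.63 at step 5, 0.88 for step 5 minus step 4 in enriched cells, and -3.83 and -2.94 for enriched cells of steps 4 and 5 against mESC. Median scaling in place of loess, chosen after seeing the data like the setting without both enriched arrays of slide 2, gave 1.59, -1.91 and 1.88 for step 4 control, step 4 enriched and step 5 control against mESC. It turned Rec8 above mESC in step 4 (0.09) and step 5 enriched cells (0.08) and reversed Rad21 (0.19), Smc1a (0.25) and Smc3 (0.1) in step 4 control and Smc1a (0.06) and Smc3 (0.08) in step 5 control. The cause of these changes was not tested.

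Counts of genes called moved as follows. Between enriched and control cells they were 3018 without slide 2 and 3917 without both enriched arrays of slide 2 at step 4, and 5769 without slide 2 at step 5. From step 4 to step 5 control cells gave 2 (processed ratios, deposited table), 1 (replicate block) and 81 (without slide 2), and enriched cells gave 2440 (replicate block), 939 (only the arrays compared), 310 (without slide 2) and 178 (without both enriched arrays of slide 2). The difference of the enrichment effects gave 0, with 1574 at an unadjusted p under 0.05, and 7 (no background correction, intensity trend), 1 (processed ratios, deposited table, median scaling) or 8 (mean of all probes). With only the arrays compared, step 5 control against mESC gave 6094 genes, and 17 germline genes were above mESC in step 4 control. With Cy5 above background required on all 12 arrays, which drops Stk31, Dazl and Sycp1 and leaves fewer genes tested, germline genes lower were 41 and 46 between enriched and control cells and 50 at each step against mESC, and 21 were higher in step 5 control. Pairing by the replicate number changed, beyond those given beside the results, no call of a gene in a comparison whose value is printed for it.

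Leaving out single arrays gave 4341 to 7712 genes between enriched and control cells at step 4 and 6839 to 9171 at step 5. It gave 0 to 408 from step 4 to step 5 in control (408 without step 5 control replicate 2, 58 without step 4 control replicate 1) and 445 to 1764 in enriched cells (445 without step 4 enriched replicate 2, 610 and 789 without step 5 enriched replicates 3 and 2, 910 without step 4 enriched replicate 3), and 0 to 16 for the difference. At step 4 the counts were 4341 without step 4 control replicate 2 and 4579 and 4432 without step 4 enriched replicates 2 and 3. Against mESC counts were 5768 (without step 4 control replicate 3) to 9392, 13031 to 15382, 7197 to 10079 and 14492 to 16327 for step 4 control and enriched and step 5 control and enriched cells. Germline genes lower in enriched than control cells numbered 60 to 68 (step 4) and 68 to 74 (step 5), lower than mESC 73 to 78 at each step, and higher than mESC 16 to 29 in step 4 and 27 to 40 in step 5 control. The members' median was -4.41 to -3.78 and -4.47 to -3.64 between enriched and control cells, 0.11 to 0.45 and 0.02 to 0.82 between steps in control and enriched cells, and -0.2 to 0.53 for the difference, which for Ddx4 was -0.11 (without step 5 enriched replicate 2) to 1.16 (without step 4 enriched replicate 2). Against mESC it was 0.89 to 1.28, -2.74 to -2.24, 1.41 to 1.58 and -2.21 to -1.52 in the same order of groups. Signal over background limits Stk31, Dazl and Sycp1 in step 4 enriched cells, each well above background on 1 of 3 arrays.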
